A study of Mus musculus with 6 samples.

Results

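Transcripts of 8 proteins that bind inflammatory messenger RNAs and set how long they last were measured by RNA sequencing in RAW 264.7 cells. All 8 were found by gene symbol among the 21604 genes of the count table, and all 8 passed the filter on low counts. RAW 264.7 is a mouse line of transformed macrophage-like cells. Its labels give the cell type as bone marrow macrophage and the genotype as wild type. In the first group, 3 samples were treated for 24 h with 100 ng/mL lipopolysaccharide (LPS), an outer membrane glycolipid of Gram-negative bacteria that macrophages sense through TLR4. In the second group, 3 samples received the same dose of LPS and 2 mg/mL of PE-CUR over the same time. By the title of the series PE-CUR is a Pickering emulsion, held together by solid particles, that carries curcumin. LPS was thus common to both groups, and no sample without LPS, with an empty emulsion or with free curcumin is analysed here. The stated question is whether PE-CUR acts against inflammation and osteoclast formation, and nothing in the labels says that replicates were separate cultures, so each p-value reflects only how far the samples scatter, and that scatter may be technical.

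Many cytokine transcripts carry AU-rich elements or stem-loops in their 3′ untranslated region (UTR). Tristetraprolin (TTP, gene Zfp36) and its relatives Zfp36l1 and Zfp36l2 bind the AU-rich elements and bring in the CCR4-NOT complex, which removes the poly(A) tail. Regnase-1 (Zc3h12a) is an endonuclease that cuts stem-loops, and the Roquins (Rc3h1 and Rc3h2) bind stem-loops and recruit deadenylases. KSRP (Khsrp) also promotes decay of AU-rich transcripts, whereas HuR (Elavl1) binds similar elements and stabilises them. In macrophages LPS induces several of these genes together with the cytokines they restrain, and the kinase MK2 holds TTP in a less active, phosphorylated form. Transcript levels say nothing of phosphorylation, protein level or binding, none of which was measured.

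In LPS plus PE-CUR, Zfp36l1 stood about 7.16-fold higher than in LPS, while its relatives Zfp36 and Zfp36l2 were slightly lower. Zc3h12a, Elavl1 and Khsrp rose 1.48-fold, 1.44-fold and 1.74-fold. Rc3h2 was 1.41-fold lower, and Rc3h1 did not pass the test. Of the 8 genes 4 were called higher and 3 lower at an adjusted p under 0.05 (edgeR quasi-likelihood test, Benjamini-Hochberg over 13014 genes tested, 3 against 3 libraries). Among the 8, Zfp36l1 alone was called higher by at least 2-fold, as were 6.37% of genes tested. Of all genes tested 63.4% were called, 30.8% higher and 32.7% lower, so that being called sets none of the 8 apart. The median log2 fold change of all genes tested was -0.03. In bulk RNA a change in the share of cells that express a gene and a change in its RNA per cell cannot be told apart.

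**Figure D1:**
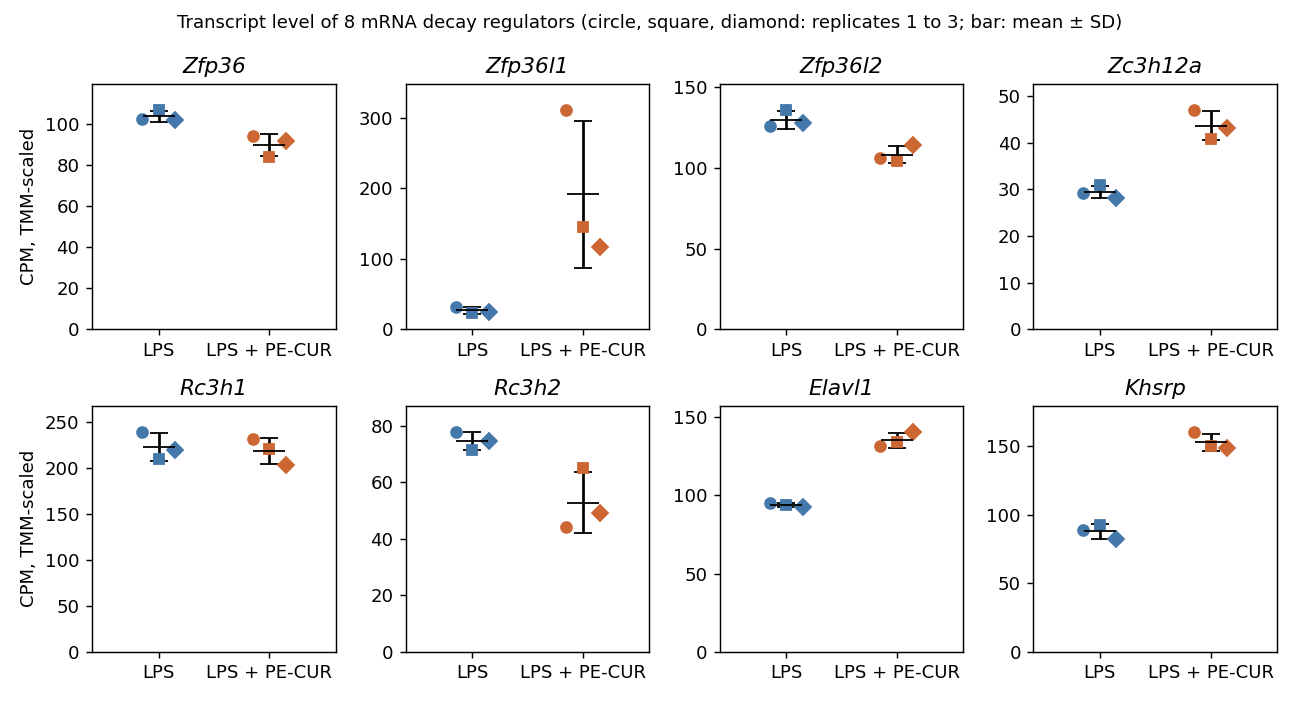
Counts scaled to library size (CPM with TMM factors, axes from 0) of the 8 genes in each library, with circle, square and diamond for replicates 1 to 3 and bars for mean ± SD of 3 libraries. The groups do not overlap in 7 genes and overlap in Rc3h1, and Zfp36l1 shows the widest spread among the LPS plus PE-CUR libraries.

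Total counts were 28530750 to 35276533 per library and scaling factors 0.964 to 1.03. Genes with at least 1 count numbered 18210 to 18451 in the LPS libraries and 16701 to 17002 in those with PE-CUR. All 12 macrophage markers examined had counts in every library and summed to 11068 to 11702 CPM in LPS and 9079 to 10113 CPM in LPS plus PE-CUR. Liver markers (9 genes, albumin the most abundant) summed to 51.4 to 72.0 CPM in the LPS libraries and to 0.186, 0.0568 and 85.9 CPM in LPS plus PE-CUR replicates 1 to 3. Fibroblast markers (7 genes) reached 12.3 CPM in LPS plus PE-CUR replicate 2 and were at most 2.78 CPM elsewhere. T cell markers (6 genes, mostly Lck) summed to 5.56 to 7.37 CPM in LPS and 7.85 to 8.69 CPM in LPS plus PE-CUR. B cell markers (6 genes, Cd22 the most abundant) went from 3.62 to 5.87 CPM in LPS to between 0.993 and 1.21 CPM with PE-CUR, and neutrophil markers (5 genes, mostly S100a8) from 4.03 to 5.38 CPM to between 1.71 and 2.44 CPM. Lck was called higher and Cd22 and S100a8 lower. The fibroblast markers Pdgfra (mean 0.959 to 0.0745 CPM) and Pdgfrb (0.411 to 0.103 CPM) were also called lower. All of these were named after their values were seen. The part of the markers in the results was not tested.

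Zfp36l1 (chromosome 12, 80107760 to 80113013, build mm10, protein coding) moved furthest. Its level was 31.7, 23.4 and 25.0 CPM in LPS replicates 1 to 3 and 311, 145 and 117 CPM in LPS plus PE-CUR replicates 1 to 3. Every library with PE-CUR thus lay above every library with LPS alone, but replicate 1 was more than 2-fold above both others of its group. The log2 fold change was 2.84 (SE 0.48, edgeR adjusted p = 0.00680), and 26 of 13014 genes, Zfp36l1 among them, had a value at least as high. Without LPS plus PE-CUR replicate 1 it was 2.32 (edgeR adjusted p = 5.02e-05), so the call does not rest on that library. Such a library was uncommon: of 8877 genes with a mean of at least 10 CPM, 8 had replicate 1 at least 2-fold above both others of the LPS plus PE-CUR group. The SD of log2 CPM among the LPS plus PE-CUR libraries was 0.74 for Zfp36l1, at percentile 99.4 of those genes. Zfp36l1 was above its LPS range in PE-CUR replicates 1 and 2, where liver markers were near 0, and in replicate 3, where they summed to 85.9 CPM, more than in any LPS library. Whether RNA from other cells bears on Zfp36l1 was not tested.

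The stretch around the start of Zfp36l1 (RefSeq, GRCm38.p6, minus strand, chr12:80112964-80113263, from 250 bases before the start to 50 after) is shown because it belongs to the gene that moved most. Capitals mark matches to AP-1 (TGANTCA) and to the TATA box (TATAAA).
Zfp36l1: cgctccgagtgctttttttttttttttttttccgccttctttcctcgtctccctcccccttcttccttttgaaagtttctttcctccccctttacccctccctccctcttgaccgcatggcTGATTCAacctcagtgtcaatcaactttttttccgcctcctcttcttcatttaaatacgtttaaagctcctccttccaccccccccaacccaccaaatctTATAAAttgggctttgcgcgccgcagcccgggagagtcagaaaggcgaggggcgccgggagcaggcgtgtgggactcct
The TATA match begins at -29 and the AP-1 match at -129 relative to the start. Searched on both strands, AP-1 letters occur in 7.81% and TATA letters in 13.6% of 32851 RefSeq promoters of the same length. The letters of the cyclic AMP response element (TGACGTCA, in 1.79% of promoters), the GC box (GGGCGG, 35.7%) and the E-box (CACGTG, 7.15%) are not in this window. None of the motifs overlap here, and a match is a description of letters only. Promoter entries were found for 7 of the 8 genes. Of these, Rc3h1 also held the AP-1 letters and Zfp36l1 alone the TATA letters.

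TTP itself, Zfp36 (chromosome 7, 28376784 to 28379228), had 102, 107 and 102 CPM in LPS and 94.0, 83.9 and 91.9 CPM in LPS plus PE-CUR. The groups did not overlap, and the log2 fold change was -0.21 (SE 0.06, edgeR adjusted p = 0.0135). That call was lost without LPS replicate 1, 2 or 3 (edgeR adjusted p = 0.0634, 0.116 and 0.0732) and without LPS plus PE-CUR replicate 2 (edgeR adjusted p = 0.167). The direction stayed the same in those fits, with log2 fold changes between -0.18 and -0.12.

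Zfp36l2 (chromosome 17, 84183924 to 84187947) stood at 126, 136 and 128 CPM in LPS and at 106, 104 and 114 CPM in LPS plus PE-CUR. It fell by 0.26 on the log2 scale (SE 0.06, edgeR adjusted p = 0.00309), and the call held in each fit that left out a library.

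Per length, the makeup of the family therefore differed between the groups. Values in FPKM, which divide counts by depth and gene length, of Zfp36, Zfp36l1 and Zfp36l2 summed to 106, 108 and 105 in the LPS libraries and to 189, 121 and 120 in those with PE-CUR. Zfp36l1 made up 10.2%, 7.35% and 8.20% of this sum in LPS and 55.6%, 38.8% and 31.7% in LPS plus PE-CUR. The share of Zfp36 went from 56.3 ± 0.545% to 36.1 ± 7.04% and that of Zfp36l2 from 35.1 ± 0.925% to 21.9 ± 5.23% (mean ± SD, n = 3). No share overlapped between the groups. These shares do not depend on the scaling between libraries, and no test was made of them.

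**Figure D2:**
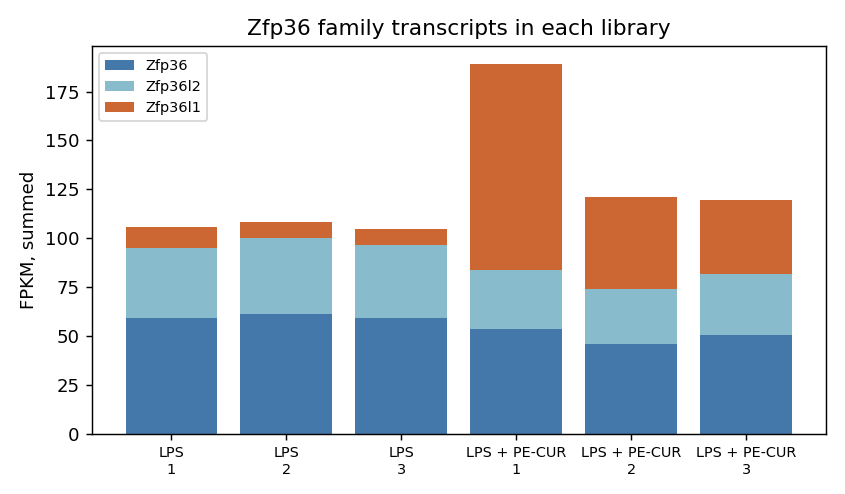
Summed FPKM of Zfp36, Zfp36l2 and Zfp36l1 in each of the 6 libraries, as stacked bars from 0. Zfp36l1 is the smallest part in the 3 LPS libraries (7.35% to 10.2%) and 31.7% to 55.6% of the sum in the 3 libraries with PE-CUR, and the sum is highest in LPS plus PE-CUR replicate 1.

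Of the stem-loop binding proteins, Regnase-1 rose and the Roquin gene Rc3h2 was lower. Zc3h12a (chromosome 4, 125118414 to 125127881) had 29.2, 30.9 and 28.2 CPM in LPS and 47.0, 40.7 and 43.2 CPM in LPS plus PE-CUR. The groups lay apart, with a log2 fold change of 0.57 (SE 0.08, edgeR adjusted p = 7.49e-05).

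Rc3h2 (chromosome 2, 37368861 to 37424370) stood at 77.7, 71.6 and 74.8 CPM in LPS and at 44.1, 64.9 and 49.2 CPM in LPS plus PE-CUR. All PE-CUR libraries were below the LPS range, with replicate 2 nearest to it. The log2 fold change was -0.50 (SE 0.14, edgeR adjusted p = 0.0133), and the call was lost without LPS replicate 1 (edgeR adjusted p = 0.0565) or LPS replicate 3 (edgeR adjusted p = 0.0519). Its paralog Rc3h1 (chromosome 1, 160906411 to 160974976) had 238, 209 and 219 CPM in LPS and 232, 221 and 203 CPM in LPS plus PE-CUR. These ranges overlapped and the log2 fold change was -0.02 (SE 0.07, edgeR adjusted p = 0.775).

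HuR and KSRP, which act in opposite directions on AU-rich transcripts, both rose. Elavl1 (chromosome 8, 4284781 to 4325140) had 94.9, 93.6 and 92.7 CPM in LPS and 131, 134 and 140 CPM in LPS plus PE-CUR. The libraries of each group lay close together, and the log2 fold change was 0.53 (SE 0.06, edgeR adjusted p = 1.07e-05). Khsrp (chromosome 17, 57021049 to 57031507) went from 88.5, 92.6 and 81.8 CPM to 160, 150 and 149 CPM. Its log2 fold change was 0.80 (SE 0.06, edgeR adjusted p = 1.58e-06). Both calls held in every fit that left out a library.

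In all, groups did not overlap in 7 of the 8 genes, against 69.0% of all genes tested: 4 lay above (33.3% of all) and 3 below (35.7% of all).

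**Figure D3:**
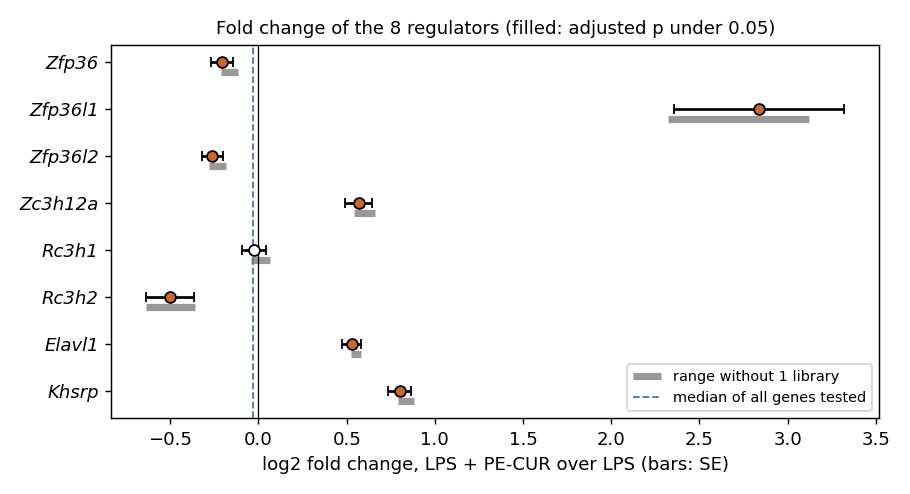
Log2 fold change of each gene, LPS plus PE-CUR over LPS, with bars for the SE, and below it in grey the range over the 6 fits that left out 1 library. Filled points have an adjusted p under 0.05, the dashed line is the median of all genes tested (-0.03), and Zfp36l1 at 2.84 lies far from the other 7.

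Compared per length, the order of the genes differed between the groups. In LPS the FPKM levels ran from Zfp36 (59.9 ± 1.31) through Zfp36l2 (37.4 ± 1.44), Khsrp (22.3 ± 1.26), Rc3h1 (20.6 ± 1.40), Elavl1 (14.9 ± 0.138), Zc3h12a (10.7 ± 0.447) and Zfp36l1 (9.12 ± 1.48) to Rc3h2 (8.40 ± 0.362; mean ± SD, n = 3). Neighbours whose ranges overlapped were Khsrp with Rc3h1, Zc3h12a with Zfp36l1, and Zfp36l1 with Rc3h2. In LPS plus PE-CUR the order of FPKM levels was Zfp36l1 (63.3 ± 36.4), Zfp36 (49.997 ± 3.93), Khsrp (37.5 ± 2.42), Zfp36l2 (30.0 ± 1.45), Elavl1 (20.7 ± 0.557), Rc3h1 (19.5 ± 1.64), Zc3h12a (15.3 ± 1.47) and Rc3h2 (5.70 ± 1.06). There Zfp36l1 overlapped with Zfp36, and Elavl1 with Rc3h1.

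Set against Elavl1 within each library, the log2 ratio of FPKM for Zfp36 was 1.97, 2.05 and 2.00 in LPS and 1.38, 1.19 and 1.25 in LPS plus PE-CUR. TTP transcripts were thus lower relative to HuR transcripts in every library with PE-CUR, by 0.74 on average on the log2 scale. The larger part of this lies in the reference, since the log2 fold change was 0.53 for Elavl1 and -0.21 for Zfp36. On the same ratio Rc3h1, itself not called, differed by -0.55, Zfp36l2 by -0.79 and Zfp36l1 by 2.19. For Zc3h12a the same ratio overlapped between the groups, at -0.48 ± 0.07 in LPS and -0.44 ± 0.13 in LPS plus PE-CUR. For Khsrp it went from 0.58 ± 0.08 to 0.86 ± 0.10, and for Rc3h2 it went from -0.83 ± 0.05 to -1.87 ± 0.29 (mean ± SD, n = 3, no test made).

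Annotation bears on how firmly single genes can be read. Per GENCODE M21 (same build), Gm26669 overlaps 4967 bases of Zfp36l1 on the opposite strand, Gm44710 overlaps 1274 bases of Zfp36, and AC132455.1 overlaps 2192 bases of Zfp36l2. The sources used here do not say whether counting used strand, and without it reads of these partners cannot be told apart from those of the genes. Elavl1 overlaps Ccl25 by 204 bases and Khsrp overlaps Gm17949 by 63 bases, both on opposite strands. On the same strand, where strand would not separate them, Rc3h1 holds Gm37653 (3578 bases), Gm37052 (1831) and Gm37809 (931), and Rc3h2 holds the small nucleolar RNA gene Snord90 (111). No 50-base stretch of transcript was shared between any of the 8 genes. The pseudogene Zfp36l1-ps holds 96 of the 3072 such stretches of Zfp36l1, and Gm13042 and Gm8602 hold 70 of 4453 of Khsrp. Zfp36 shared 61 of 3468, Rc3h2 129 of 19837 and Zc3h12a 5 of 2831 with other genes, and Zfp36l2, Rc3h1 and Elavl1 shared 0. Reads from those stretches could be split between genes by the counting.

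The genes whose profile lay nearest to each of the 8 were found by the Euclidean distance between centred log2 CPM over the 6 libraries, among 8723 others with a mean of at least 10 CPM. For Zfp36l1 they were Rarb, a retinoic acid receptor (distance 0.67), and Smad3, a signal carrier of TGF-beta receptors (0.82). Rarb went from 12.3, 8.83 and 8.02 CPM to 73.8, 54.4 and 49.3 CPM, and so was also highest in replicate 1 of each group. The other 7 genes had closer neighbours, at distances of 0.02 to 0.13. They were Fbrs and E2f6 for Zfp36, Wipf1 and Pip4p1 for Zfp36l2, Adap1 and Mrpl4 for Zc3h12a, and Zkscan1 and Zbtb34 for Rc3h1. Pyroxd1 and Sh2d6 were nearest to Rc3h2, Abcb1b and Cdca4 to Elavl1, and Baz1b and Wbp11 to Khsrp. With 2 groups of 3 libraries this distance takes in both the fold change and the scatter within groups.

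The 8 genes can also be read as transcripts, since several such proteins bind their own messages. The nonamer TTATTTATT, the core sequence bound by TTP and its relatives, was searched on the sense strand of the longest annotated 3′ UTR of each gene (GENCODE M21), overlapping matches counted separately. At least 1 match was found in 6 of the 8 genes, against 8.10% of 11421 genes tested with such a UTR. The UTRs of the 8 genes are 774 to 7181 bases long, and the median of all genes is 1127 bases. Zc3h12a and Khsrp held no match. Elavl1 held 8 matches within bases 3794 to 3848 of its 3′ UTR, and the other 5 genes 1 each. The sites are shown with 10 bases on either side, 5′ to 3′, as DNA letters of the transcript, with the nonamer in capitals. For Elavl1 the first match is shown, and Tnf (first of 5 matches) and Ptgs2 are added as transcripts known to be bound by TTP.
Zfp36 (chr7:28376951-28376979, minus strand): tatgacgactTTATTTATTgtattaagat
Zfp36l1 (chr12:80108167-80108195, minus strand): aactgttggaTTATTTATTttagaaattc
Zfp36l2 (chr17:84184914-84184942, minus strand): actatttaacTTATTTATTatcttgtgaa
Rc3h1 (chr1:160970043-160970071, plus strand): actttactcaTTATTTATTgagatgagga
Rc3h2 (chr2:37373287-37373315, minus strand): caaagacattTTATTTATTttactctgta
Elavl1 (chr8:4285788-4285816, minus strand): gtcatgaaaaTTATTTATTtatttattta
Tnf (chr17:35199689-35199717, minus strand): tttgcacttaTTATTTATTatttatttat
Ptgs2 (chr1:150105790-150105818, plus strand): ctgaccatatTTATTTATTtatgtgaaga
Of the 6 genes with the nonamer 2 were called higher and 3 lower, and both genes without it were called higher.

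Over all tested genes, those with the nonamer were called lower somewhat more often than called higher. Of 925 such genes 280 (30.3%) were called higher and 367 (39.7%) lower, with a median log2 fold change of -0.10. Of the 10496 genes without it 32.8% were called higher and 32.9% lower, with a median of -0.02. Genes with the nonamer had longer 3′ UTRs (median 2291 against 1045 bases). Among 3′ UTRs of at least 1000 bases 40.0% of 765 genes with the nonamer and 37.8% of 5405 genes without it were called lower, with medians of -0.11 and -0.07. Of the same genes 29.7% with and 28.3% without the nonamer were called higher. Among these long 3′ UTRs lower calls thus outnumbered higher calls with and without the nonamer. These shares are a description, and no test of the difference was made.

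Transcripts described as TTP targets, a list made for this comparison, were mostly lower. Among the 23 that were tested, 14 fell, 4 rose and 5 were not called, with a median log2 fold change of -0.39, beside 30.8% higher and 32.7% lower of all genes tested. Dusp1, a phosphatase of p38 and other MAP kinases, went from 117 to 13.7 CPM, a log2 fold change of -3.09 with an edgeR adjusted p of 4.57e-09. Cxcl2 and Ptgs2, an attractant of neutrophils and the prostaglandin synthase COX-2, fell by 2.08 and 1.85 on the log2 scale. The 4 that rose were Tnf (1.06), Nos2 (0.79), Mcl1, a survival factor (0.59), and Ccnd1, cyclin D1 (0.57). Nos2 and Ccnd1 were named after their values were seen. Among the 11 tested targets with the nonamer 8 fell, 1 rose and 2 did not pass, and among the 12 without it 6 fell, 3 rose and 3 did not pass. Tnf, with 5 matches, was the gene with the nonamer that rose. Csf2, with 4 matches, had means of 0.424 and 0.746 CPM without and with PE-CUR, which missed the threshold (edgeR adjusted p = 0.0546), and was named after its value was seen.

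Transcripts described as targets of Regnase-1 or the Roquins, a list that shares 8 genes with that of TTP (32.0% of the TTP list and 40.0% of this one), were called about as often in each direction as genes in general. Among the 15 that were tested, 5 rose, 5 fell and 5 were not called (median log2 fold change -0.02), beside 30.8% higher and 32.7% lower of all genes tested. Nfkbid, an atypical inhibitor of NF-kB, rose from 9.84 to 40.4 CPM and Rel, an NF-kB subunit, from 95.9 to 143 CPM. The transferrin receptor gene Tfrc (411 to 644 CPM) and the costimulator gene Icos (0.544 to 1.71 CPM) also rose, beside Tnf. Those that fell were Cxcl2, Ptgs2, Il6, Il1b and the prostacyclin receptor gene Ptgir (71.2 to 51.2 CPM). Il6 (1.89 to 0.245 CPM) and Il1b (1.92 to 0.807 CPM) were low in both groups. Tfrc, Icos, Ptgir, Il6 and Il1b were named after their values were seen. Nfkbiz, a textbook target of Regnase-1, stood at 118 and 144 CPM and just missed the threshold (edgeR adjusted p = 0.0501); it was named after its value was seen.

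The enzymes that carry out decay were mostly higher. Of 20 tested deadenylases, adaptors and poly(A)-binding proteins 13 rose, 3 fell and 4 did not pass (median log2 fold change 0.23), beside 30.8% higher, 32.7% lower and a median of -0.03 over all genes tested. Cnot1, the scaffold of the CCR4-NOT complex to which TTP binds, rose from 210 to 318 CPM, its deadenylase subunit gene Cnot6 from 110 to 178 CPM, and Pabpc4, a poly(A)-binding protein gene, from 109 to 176 CPM. The 3 that fell were all adaptors of the BTG and TOB family, which link deadenylases to their targets. Btg1 fell from 1024 to 640 CPM, Btg2 from 44.8 to 32.5 CPM and Tob1 from 25.4 to 18.3 CPM (edgeR adjusted p = 3.02e-05, 3.81e-04 and 8.35e-04). Tob2 stood at 51.9 and 51.8 CPM and was not called. Tob1 and Tob2 were named after their values were seen.

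In the list of decapping and 5′ to 3′ decay 15 of 19 tested members rose, 4 did not pass and 0 fell (median log2 fold change 0.25; 0 fell at an unadjusted edgeR p under 0.05, by DESeq2 or by limma). Over all genes tested 30.8% rose and 32.7% fell. Lsm2, Lsm4 and Lsm7, parts of the ring that activates decapping, rose by 1.31, 1.32 and 1.24 on the log2 scale. Lsm2, Lsm4 and Lsm7 also belong to the nuclear ring that binds the U6 splicing RNA. The helicase gene Ddx6, which joins deadenylation to decapping, stood at 345 and 344 CPM (edgeR adjusted p = 0.948), and the decapping enzyme gene Dcp2 rose from 78.4 to 88.2 CPM. Of 15 tested exosome subunits and cofactors 10 rose, 5 did not pass and 0 fell (median 0.45; 0 at an unadjusted edgeR p under 0.05, by DESeq2 or by limma). Exosc8 rose from 22.6 to 58.9 CPM, Exosc1 from 24.2 to 46.9 CPM and the nuclease gene Dis3 from 41.2 to 98.6 CPM. The 5 that did not pass were Skiv2l (48.4 and 48.3 CPM), Hbs1l (94.5 and 95.3), Dis3l (30.6 and 27.5), Ttc37 (60.0 and 73.7) and Exosc4 (14.3 and 15.5). These 5 genes, Ddx6 and Dcp2 were named after their values were seen.

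**Figure D4:**
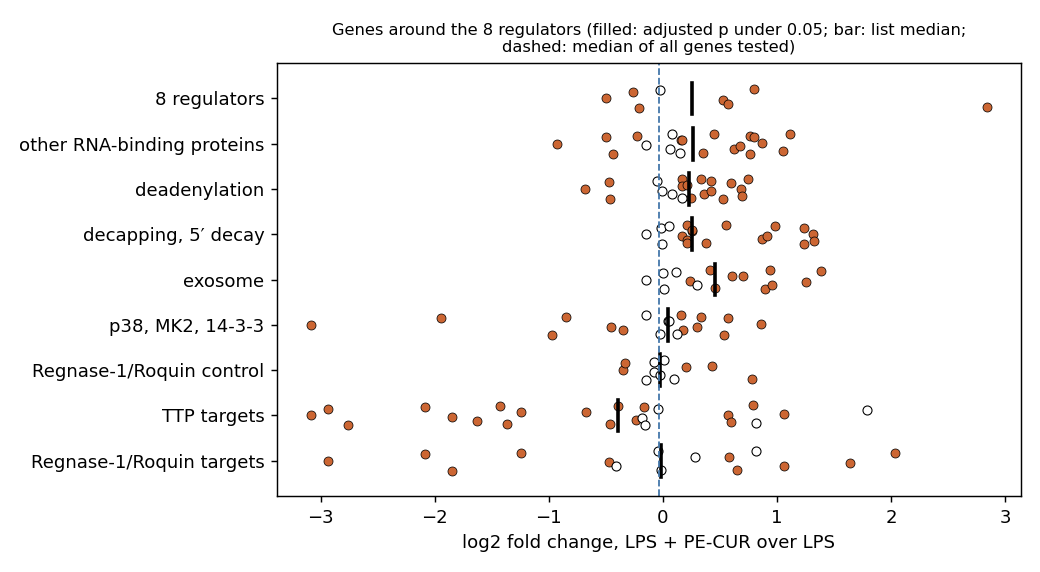
Log2 fold change of each tested gene (points, spread vertically for legibility) in the 8 regulators and in 8 lists around them, filled where the adjusted p was under 0.05. Black bars are list medians, and they run from -0.39 for TTP targets to 0.45 for the exosome, against -0.03 for all genes tested (dashed line).

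Other RNA-binding proteins that act on stability were more often called higher than lower. Among the 20 that were tested, 12 rose, 4 fell and 4 were not called (median log2 fold change 0.26), where 30.8% of all genes rose and 32.7% fell. Hnrnpd, whose protein AUF1 binds AU-rich elements, rose from 122 to 254 CPM, the stress granule gene G3bp1 from 169 to 367 CPM, and Ybx1 from 649 to 1187 CPM. The 4 that fell were Arid5a, N4bp1, Zc3h12c and Zc3h12d. Arid5a, whose protein protects Il6 messages from Regnase-1, fell by 0.93 on the log2 scale, to 7.13 CPM from 13.6 (edgeR adjusted p = 2.09e-04). N4bp1, another endonuclease-like brake on cytokines, fell by 0.44 on that scale, to 72.7 CPM from 98.3 (edgeR adjusted p = 2.17e-04). The Regnase-1 relatives Zc3h12c and Zc3h12d fell by 0.23 and 0.50 on the log2 scale, opposite in sign to Zc3h12a, and were named after their values were seen.

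For genes whose products act on TTP, the counts were near the shares over all genes tested (30.8% higher, 32.7% lower). Of 18 tested kinases, phosphatases and 14-3-3 genes around TTP 7 rose, 6 fell and 5 did not pass (median log2 fold change 0.05). Mapkapk2, which encodes the TTP kinase MK2, had 269, 263 and 253 CPM in LPS and 550, 429 and 443 CPM in LPS plus PE-CUR. It rose without overlap of the groups (log2 fold change 0.86, SE 0.09, edgeR adjusted p = 2.44e-05). Mapk14, the p38 kinase upstream of MK2, fell by 0.35 on the log2 scale, to 105 CPM from 134 (edgeR adjusted p = 4.20e-04). Ywhae, a 14-3-3 gene, rose from 466 to 691 CPM and its relative Ywhag fell from 670 to 489 CPM. Ppp2r1a, the scaffold of a phosphatase that acts on TTP, rose from 249 to 314 CPM. Dusp1, described above, also belongs to these genes. Mapk14 was named after its value was seen.

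Of 11 tested genes in a list around the control of Regnase-1 and the Roquins, 3 rose, 2 fell and 6 did not pass. The list holds genes whose proteins cleave, phosphorylate or ubiquitinate Regnase-1 or the Roquins, and others such as Usp10 and Tank. The median log2 fold change was -0.03, as over all genes. The shares called were near or below the 30.8% higher and 32.7% lower of all genes tested. Usp10, a deubiquitinase gene, rose from 50.3 to 86.4 CPM, and Card9 and Irak1, genes of innate signalling, rose by 0.43 and 0.21 on the log2 scale. Bcl10, partner of the protease MALT1, fell from 50.5 to 39.6 CPM without overlap of the groups (edgeR adjusted p = 9.44e-04). Tank fell from 116 to 92.1 CPM, but its groups overlapped (edgeR adjusted p = 0.0383). Malt1 itself stood at 67.7 and 66.4 CPM (edgeR adjusted p = 0.765) and was named after its value was seen.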

How the data were processed

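The authors deposited whole-number counts per gene symbol and FPKM values for the same genes and 6 libraries. The build mm10 and the tools HTSeq, fastp, DESeq2 and SAMtools are named, without versions, in the submitters' processing notes. For the aligner, annotation and strand setting the entry is: not given in the sources used here. The deposited FPKM values are the counts divided by library total and 1 length per gene (21604 of 21604 genes, relative tolerance 1e-04), so they are no second measurement. Columns were matched to samples by title.

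The count test used edgeR 4.0.16 under R 4.3.3, with filterByExpr by group (13014 genes kept), TMM factors, and a robust quasi-likelihood fit with the group as its only term, tested two-sided. SE is the log2 fold change divided by the root of F. Levels are CPM scaled by TMM factors, and marker sums use unscaled totals. The test was also run on simulated counts in which few genes differed, unlike in these data, and no result here rests on that run. Alternatives were other scaling and filters, DESeq2 1.42.0, limma 3.58.1 on log2(FPKM + 1) and log2(FPKM + 0.1), a replicate block, and each library left out. Depth was 28530750 to 35276533 counts per library, and the 8 genes had 769 to 10103 counts each.

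The 8 genes and the lists were chosen with earlier results of these data known, so no set test was made. Named were the 8 genes, from each list the called genes of smallest p (at most 3 in the commoner direction, at most 2 in the opposite), and the 2 nearest profiles of each of the 8, leaving out predicted genes. Genes outside this rule are marked in the text. Coordinates come from RefSeq GRCm38.p6 and GENCODE M21, both of the assembly of mm10.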

Additional observations from a re-analysis of the deposited data

How the results depend on the processing

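All 4 calls of higher regulators (Zfp36l1, Zc3h12a, Elavl1, Khsrp) and the call of Zfp36l2 held under every alternative run. Without any filter on low counts Zfp36 was at -0.15 (log2 fold change, edgeR adjusted p = 0.0976), no longer called, and Rc3h1, not called in any fit, turned to 0.029, as it did without the mitochondrial and 10 most abundant genes (0.010). Leaving out 1 library gave 1 to 3 regulators called lower, Zfp36 between -0.21 and -0.12, Rc3h2 between -0.64 and -0.36 and Rc3h1 between -0.042 and 0.065. In limma without a filter 9 decapping genes and 4 genes of the p38 and MK2 list were called higher, against 15 and 7. Of the Regnase-1 and Roquin control genes 1 was called lower with the replicate block, without the mitochondrial and 10 most abundant genes, and in 4 of 6 fits without a library (range 1 to 2), against 2. The median of genes with the nonamer, -0.10, was -0.13 for at least 2 matches, -0.069 for the shorter TATTTAT and -0.11 for 3′ UTRs of at least 1000 bases, the last chosen after seeing the data. The causes were not tested. No sign was found that the numbers of the titles pair the libraries. Deviations of same-numbered libraries correlated at -0.10, -0.18 and -0.05 across genes, and those of differently numbered libraries at -0.05 to 0.17. So few libraries cannot settle whether the numbers mark pairs. With the replicate block 3708 genes were called higher and 3953 lower, against 4004 and 4252, and Zfp36l1 was at 2.72.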
